A study of Homo sapiens with 12 samples.

Results

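Interferon-stimulated genes (ISGs) are the genes that cells switch on when an interferon binds its receptor. The 51 ISGs described here were picked by their symbols from the 59251 genes of the count table, with no measured value in the rule. The RNA-Seq libraries came from HL60, a human myeloid leukaemia cell line, and all groups were this same line with no allele or transgene. Non-treated cells were compared with cells given 1 µM all-trans retinoic acid (ATRA), 1 µM palbociclib (an inhibitor of the cell cycle kinases CDK4 and CDK6, here CDK4/6i) or both drugs at these doses (CDK4/6i+ATRA), each for 48 h. Each of the 4 groups had 3 libraries labelled as biological replicates, and the labels name no interferon among the treatments. The p-values below measure the spread between these libraries of a single cell line.

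Type I interferons signal through IFNAR1 and IFNAR2 and the kinases JAK1 and TYK2 to a complex that holds STAT2 and IRF9 and binds the interferon-stimulated response element (ISRE). Type II interferon signals through IFNGR1 and IFNGR2 and the kinases JAK1 and JAK2, and the element through which it acts on promoters is the gamma-activated site (GAS). Many of the products act against viruses, and several ISGs are also transcribed during the maturation of myeloid cells, for which ATRA is a classical inducer in HL60.

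The promoters of the members were read first. The choice of genes did not use their sequence, but genes picked as interferon-stimulated are likely to carry the elements through which interferon acts. The shares below therefore describe the kind of gene picked and say nothing about these libraries. In the RefSeq promoter table (build GRCh38.p14, from 250 bases before to 50 after each gene's start), 41 of the 51 members had an entry. The ISRE core, GAAA followed by any 2 bases and a further GAAA, searched on both strands, lay in the window of 29 of these 41 genes (70.7%), against 1195 of all 27305 genes with an entry (4.38%). The GAS pattern, TTCNNNGAA, which reads the same on both strands, lay in 13 of 41 (31.7%), against 2560 of 27305 (9.38%). Overlapping matches were each counted, and a match is a description of letters, not of binding. The stretches below were chosen because their genes carry the results that follow, and each runs 5′ to 3′ along the gene's strand, and capitals mark the motif, the ISRE core (in 2 stretches on the opposite strand) in the first 8 and the GAS pattern in the last 3. All of these genes were higher with ATRA except HERC5 and IFITM1, which were lower with CDK4/6i+ATRA. The SP110 stretch belongs to a listed start inside the gene (hg38 chr2:230165186-230225636), and the other listed promoter of SP110 held no GAS pattern.
IFI6 (chr1:27672273-27672332, minus strand): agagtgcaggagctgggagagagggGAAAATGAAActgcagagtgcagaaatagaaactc
OAS3 (chr12:112938306-112938365, plus strand): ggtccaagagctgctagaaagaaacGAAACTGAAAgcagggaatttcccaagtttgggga
IFIT3 (chr10:89327850-89327909, plus strand): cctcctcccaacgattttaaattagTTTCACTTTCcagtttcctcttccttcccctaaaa
PARP14 (chr3:122680785-122680838, plus strand): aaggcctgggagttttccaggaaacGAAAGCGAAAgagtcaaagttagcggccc
SAMD9 (chr7:93118081-93118140, minus strand): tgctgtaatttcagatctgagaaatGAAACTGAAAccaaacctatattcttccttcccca
HERC5 (chr4:88457020-88457079, plus strand): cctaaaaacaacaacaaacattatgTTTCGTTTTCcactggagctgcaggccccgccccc
IFITM1 (chr11:313975-314034, plus strand): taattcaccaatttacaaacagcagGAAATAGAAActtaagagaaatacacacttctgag
LGALS3BP (chr17:78979947-78980006, minus strand): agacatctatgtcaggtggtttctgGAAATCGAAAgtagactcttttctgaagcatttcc
IRF1 (chr5:132490864-132490922, minus strand): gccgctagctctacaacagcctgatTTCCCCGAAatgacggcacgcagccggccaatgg
SP110 (chr2:230219989-230220047, minus strand): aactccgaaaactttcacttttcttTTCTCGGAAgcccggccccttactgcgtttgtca
IFI35 (chr17:43006737-43006783, plus strand): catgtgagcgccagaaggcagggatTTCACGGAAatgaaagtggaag

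The changes described below were set beside the presence of the ISRE core. Among tested members with an entry, the 20 with the core had a median log2 fold change of 0.92 with ATRA (14 higher, 2 lower) and the 11 without it had 0.99 (8 higher, 1 lower), where 32.1% of all genes were called higher and 35.5% lower. With CDK4/6i the medians were 0.13 (9 higher, 3 lower) and 0.10 (3 higher, 0 lower), where 28.3% and 27.9% of all genes were called. With CDK4/6i+ATRA the medians were 1.28 and 1.57 in the same order. The printed elements of IFI6, whose level was higher with ATRA, and of HERC5, whose level was lower with CDK4/6i, match the same pattern, though not in every letter. These medians were not tested against each other, and GBP2, MX2, IFIT2, TRIM22 and IRF7, which are among the members with large changes, had no entry.

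Each library held between 12230923 and 18679544 counts, so that 3 counts correspond to 0.156 to 0.275 CPM (counts scaled to a common library total by edgeR's TMM method). Of the 51 members, 37 had enough counts to be tested among the 13318 genes that were. The 14 that were not tested are EPSTI1, GBP1, GBP4, GBP5, IFI27, IFI44, IFI44L, IFIT1, OAS1, OAS2, OASL, PARP12, RSAD2 and USP18, which reached at most 16 counts in any library (IFIT1), and GBP5, IFI27, OAS2 and PARP12 had no count in any library. Several of these, such as IFIT1, IFI44L, RSAD2 and USP18, are widely used readouts of type I interferon. Members that passed the filter only through the treated groups had to differ, so counts over the 37 describe those genes and not the whole set. Of HL60's own markers, MPO, CD33, SPI1 and CEBPE had counts in every library, whereas AZU1, PRTN3 and ELANE were listed at 0 in all 12. These 3 genes are also listed on contigs beyond the primary chromosomes, and 42.6% of the 1586 protein-coding genes listed so had no count, against 23.6% of the 18136 others. The members IFI27, IRF7 and IRF9 are listed on such a contig too, and whether reads were lost there was not tested. In bulk RNA, fewer cells of a type and less RNA per cell cannot be told apart.

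The members' summed share of all counts was small in every group. It was 0.0956% to 0.0977% in non-treated cells, 0.138% to 0.139% with ATRA, 0.105% to 0.106% with CDK4/6i and 0.130% to 0.141% with CDK4/6i+ATRA. The ranges of the 2 groups given ATRA overlapped and lay above those of the 2 groups without it. These shares are of raw counts, without TMM scaling. The TMM factors were lower with CDK4/6i+ATRA (0.84 to 0.893) than in the other groups (1.025 to 1.07), so the overlap need not hold for scaled levels. A few genes made up most of this sum, with ADAR at 33.5% and TRIM25 at 22.7% of the members' CPM in non-treated cells. Per kilobase of exon, the highest mean level in non-treated cells was that of IFITM2 (80.2 CPM per kb), followed by IFITM1 (61.9), ADAR (43.7), TRIM25 (36.8) and BST2 (35.5). With CDK4/6i+ATRA the per-kilobase level of IFI6 was 24.5 and that of GBP2 20.1, from 3.17 and 0.602 in non-treated cells.

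The first comparison asked which ISGs changed with ATRA alone. ATRA raised 28 of the 37 tested members and lowered 3 (HERC5, IFITM1 and TRIM25), at a Benjamini-Hochberg adjusted p under 0.05 from edgeR's quasi-likelihood fit, the rule behind every call below. Of all 13318 genes tested, 32.1% were called higher and 35.5% lower, and 67.6% in either direction. By at least 2-fold, 20 members rose and 0 fell, where 12.9% and 8.88% of all genes did. The median log2 fold change was 1.11 over the tested members and -0.03 over all genes.

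CDK4/6i alone moved fewer members and by less. It raised 16 and lowered 3 (HERC5, EIF2AK2 and OAS3), where 28.3% of all genes were called higher, 27.9% lower and 56.2% in either direction. By at least 2-fold, 3 members rose (GBP2, GBP3 and IRF7, where 5.56% of all genes rose) and 2 fell (HERC5 and OAS3, where 5.52% did). TRIM22, at log2 1.00, fell just short of 2-fold. The members' median log2 fold change was 0.33, against 0.02 over all genes.

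With CDK4/6i+ATRA, 30 members were higher and 4 lower (HERC5, CMPK2, IFITM1 and EIF2AK2) than in non-treated cells, where 41% of all genes were called higher and 40.7% lower, together 81.7%. At least 2-fold rises numbered 22 and falls 2, against 22.3% and 23.3% of all genes, and the median log2 fold change was 1.5 (0.02 over all genes). These 3 comparisons share the non-treated libraries. The plot of levels in each library, relative to the non-treated mean, shows the rises in both groups given ATRA, and the plot of changes by treatment gives each gene's fold change with its error.

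**Figure D1:**
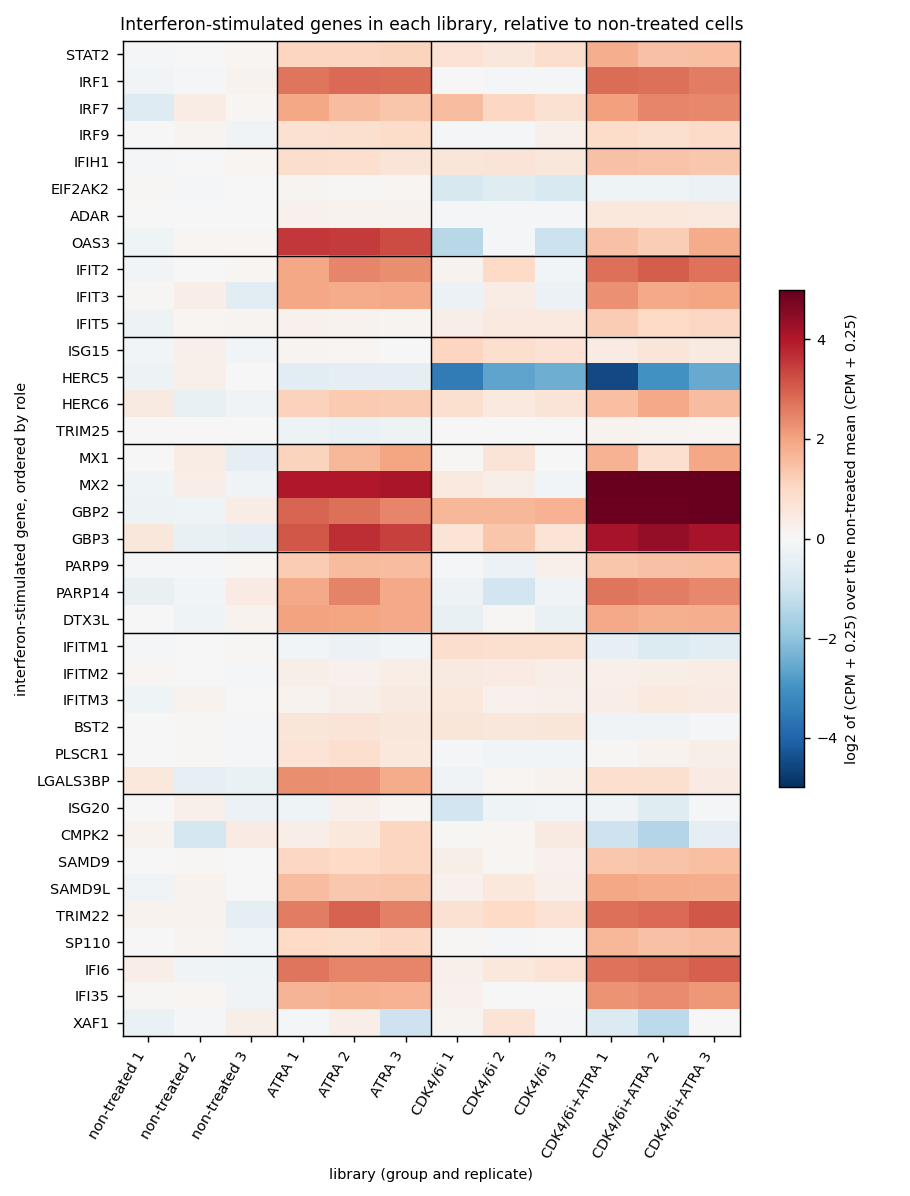
Colour shows, for the 37 tested members (rows, grouped by role) in each of the 12 libraries (columns), the log2 of the level (TMM-scaled CPM plus 0.25) over the non-treated mean plus 0.25, with the scale ending at ±5. MX2, GBP2 and GBP3 are the darkest red genes with CDK4/6i+ATRA, OAS3 is redder with ATRA than with both drugs, and HERC5 is blue in the 6 libraries given CDK4/6i.

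**Figure D2:**
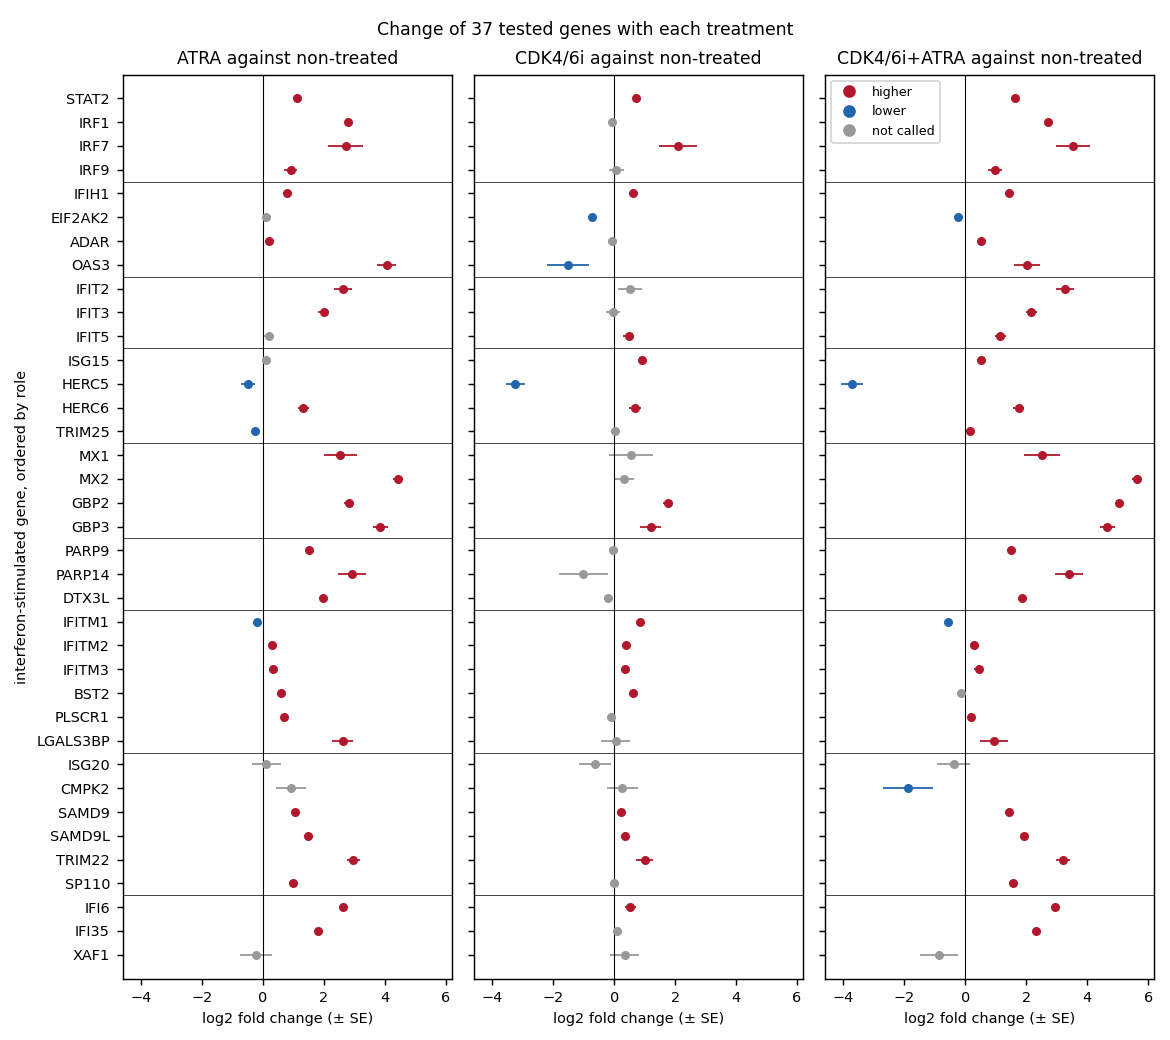
Log2 fold change against non-treated cells (x axis, whiskers: standard error) of the 37 tested members (y axis, grouped by role) for ATRA, CDK4/6i and CDK4/6i+ATRA. Red marks the 28, 16 and 30 genes called higher in that order, blue the 3, 3 and 4 called lower, and grey the others.

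Among the transcription factors of the pathway, all 4 members (STAT2, IRF1, IRF7 and IRF9) were higher with ATRA and with CDK4/6i+ATRA. IRF1 (hg38 chr5:132481609-132490773), a factor induced by interferon gamma and by retinoids, was at 9.796, 10.5 and 12.4 CPM in non-treated cells, 71.4, 79.3 and 76.5 with ATRA, 10.7, 10.4 and 10.4 with CDK4/6i and 76.6, 74.2 and 65.8 with CDK4/6i+ATRA. Its level was high in both groups given ATRA, which overlapped each other and not the 2 groups without it. The rise was 6.91-fold with ATRA (log2 fold change 2.79 ± 0.08, SE, adjusted p = 1.33e-34, edgeR) and 6.58-fold with CDK4/6i+ATRA, while CDK4/6i alone gave a log2 fold change of -0.06 ± 0.10 (SE, adjusted p = 0.664). The GAS of its promoter is among the stretches printed above.

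STAT2, the activator subunit of the ISRE-binding complex, was at 8.53, 8.72 and 9.63 CPM in non-treated cells, 19.4, 19.01 and 19.8 with ATRA, 14.8, 13.3 and 16.6 with CDK4/6i and 31.9, 25.3 and 26.03 with CDK4/6i+ATRA. All 9 treated libraries lay above the 3 non-treated ones, and those with CDK4/6i+ATRA were highest. Its log2 fold changes were 1.11 ± 0.10 (SE, adjusted p = 1.1e-13) with ATRA, 0.73 ± 0.11 (SE, adjusted p = 5.9e-08) with CDK4/6i and 1.63 ± 0.10 (SE, adjusted p = 7.29e-20) with both, by edgeR's test. IRF9, the DNA-binding subunit of that complex, rose by 0.91 with ATRA and 0.98 with both drugs on the log2 scale, and gave 0.07 ± 0.24 (not called) with CDK4/6i. IRF7, the amplifier of type I interferon genes, had at most 22 counts in a library and was called higher in all 3 comparisons. Its log2 fold changes were 2.71 with ATRA, 2.10 with CDK4/6i and 3.53 with both drugs.

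The sensors and enzymes of double-stranded RNA did not move as a block. OAS3, which makes 2'-5' oligoadenylate to activate RNase L, had the largest change with ATRA after MX2. It was at 0.3005, 0.439 and 0.451 CPM in non-treated cells, 7.27, 7.05 and 5.97 with ATRA, 0, 0.367 and 0.0585 with CDK4/6i and 1.56, 1.25 and 2.07 with CDK4/6i+ATRA. The ATRA libraries stood above all others, those with both drugs came next, and the CDK4/6i and non-treated libraries overlapped at levels of 0 to 8 counts. Its rise with ATRA was 16.7-fold (log2 fold change 4.06 ± 0.32, SE, adjusted p = 3.3e-16, edgeR), and with CDK4/6i+ATRA the level was 0.243 times that with ATRA alone (log2 -2.04 ± 0.26, SE, adjusted p = 1.99e-09). The call with CDK4/6i alone, log2 -1.52 ± 0.68 (SE, adjusted p = 0.0454), was lost when any single non-treated replicate 2 or 3, ATRA replicate 1 or 2, or CDK4/6i replicate 1 or 3 was left out (adjusted p 0.0504 to 0.253, edgeR), with the replicate block (0.0516) and under library size alone (0.0511). In these runs the log2 value lay between -1.52 and -0.90, the latter without CDK4/6i replicate 1. The related OAS1, OAS2 and OASL had at most 9 counts in a library.

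EIF2AK2, the kinase PKR that halts translation on double-stranded RNA, was at 57.7, 52.9 and 57.2 CPM in non-treated cells, 61.4, 57.9 and 59.6 with ATRA, 32.1, 36.7 and 32.8 with CDK4/6i and 47.8, 48.4 and 45.1 with CDK4/6i+ATRA. Its CDK4/6i libraries were lowest, those with both drugs lay between, and the ATRA libraries lay just above the non-treated ones. It fell with CDK4/6i (log2 fold change -0.73 ± 0.06, SE, adjusted p = 3.55e-15, edgeR) and with CDK4/6i+ATRA (log2 -0.25 ± 0.06, SE, adjusted p = 0.000213), and with ATRA gave log2 0.09 ± 0.06 (SE, adjusted p = 0.14), called higher with DESeq2's size factors, under library size alone and with only the 2 groups compared in the fit (0.12 to 0.14). EIF2AK2 shares 35 exon bases with GPATCH11 on the opposite strand. ADAR, the enzyme that edits adenosine to inosine in double-stranded RNA, was at 312, 307 and 318 CPM in non-treated cells, 358, 357 and 350.1 with ATRA, 295, 298 and 296 with CDK4/6i and 449.9, 456 and 433 with CDK4/6i+ATRA. No ADAR library of either group given ATRA overlapped the non-treated ones, and the log2 fold change was 0.19 ± 0.04 (SE, adjusted p = 8.93e-06) with ATRA and 0.52 ± 0.04 (SE, adjusted p = 2.85e-18) with both drugs, by edgeR. IFIH1, the sensor MDA5, was higher in each treated group, with log2 fold changes of 0.80 with ATRA, 0.61 with CDK4/6i and 1.42 with both.

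The IFIT proteins bind viral RNA and limit its translation. IFIT2 was at 0.541, 0.627 and 0.676 CPM in non-treated cells, 3.02, 4.43 and 4.03 with ATRA, 0.726, 1.47 and 0.527 with CDK4/6i and 5.59, 6.86 and 5.45 with CDK4/6i+ATRA. The 6 libraries given ATRA stood above the 6 others, and those with both drugs stood above those with ATRA alone. That last difference was log2 0.64 (adjusted p = 0.00872, edgeR), a call lost under library size alone (0.33). The call was also lost without ATRA replicate 1 (0.49) or CDK4/6i+ATRA replicate 2 (0.52). Against non-treated cells the log2 fold changes of IFIT2 were 2.62 ± 0.30 (SE, adjusted p = 8.21e-11) with ATRA and 3.26 ± 0.30 (SE, adjusted p = 2.95e-14) with CDK4/6i+ATRA, by edgeR's test. IFIT3, its partner, was called higher in the same comparisons (log2 1.99 and 2.16). IFIT5 gave 0.19 ± 0.18 (not called) with ATRA, rose with CDK4/6i (0.47, a call lost without non-treated replicate 1, at 0.36 and adjusted p = 0.102 by edgeR) and rose with both (1.15). IFIT1 reached at most 16 counts.

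ISG15 is a ubiquitin-like protein that HERC5 couples to other proteins. ISG15 was at 7.87, 10.4 and 7.88 CPM in non-treated cells, 9.68, 9.33 and 8.78 with ATRA, 18.6, 16.01 and 14.6 with CDK4/6i and 11.7, 13.4 and 12.1 with CDK4/6i+ATRA. The CDK4/6i libraries were highest, those with both drugs came next, and the ATRA libraries lay within the non-treated range. It rose with CDK4/6i (log2 fold change 0.92 ± 0.11, SE, adjusted p = 9.57e-10, edgeR) and with both drugs (log2 0.51 ± 0.13, SE, adjusted p = 0.000276), and with ATRA gave 0.09 ± 0.12 (SE, adjusted p = 0.532). Scaling by library size alone took the change with both drugs to 0.24 (adjusted p = 0.0736). Its ligase HERC5 ran the other way and was at 4.51, 6.58 and 5.35 CPM in non-treated cells, 3.698, 3.96 and 3.98 with ATRA, 0.259, 0.672 and 0.819 with CDK4/6i and 0, 0.446 and 0.744 with CDK4/6i+ATRA. The 6 libraries given CDK4/6i held 0 to 14 counts and did not overlap the 6 others. HERC5 fell with CDK4/6i (log2 fold change -3.24 ± 0.31, SE, adjusted p = 4.11e-13, edgeR) and with CDK4/6i+ATRA (log2 -3.72 ± 0.37, SE, adjusted p = 5.0e-13). The value with both drugs ranged from -4.55 to -3.17 as single libraries were left out. With ATRA the log2 fold change of HERC5 was -0.49 ± 0.22 (SE, adjusted p = 0.0436), a call lost without non-treated replicate 2 or 3 or any ATRA replicate (log2 -0.35 to -0.51), and by DESeq2's test, with DESeq2's size factors and under library size alone (-0.45 to -0.46).

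The related ligase HERC6 rose with each treatment (log2 1.32 with ATRA, 0.69 with CDK4/6i, 1.75 with both). TRIM25, the ligase that activates RIG-I, was lower with ATRA (log2 -0.27), gave 0.03 ± 0.04 (not called) with CDK4/6i, and was higher with both drugs (0.14), where scaling by library size alone turned the sign to -0.12 and no filter gave 0.03 (not called). The ISG15 protease USP18 had at most 15 counts in a library.

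The dynamin-like MX proteins and the guanylate-binding proteins (GBP) held the largest rises with both drugs. MX2 (hg38 chr21:41362027-41409393), which blocks nuclear import of viral capsids, was at 0.601, 1.003 and 0.619 CPM in non-treated cells, 15.8, 15.6 and 16.6 with ATRA, 1.14, 0.978 and 0.644 with CDK4/6i and 37.5, 39.04 and 34.05 with CDK4/6i+ATRA. The ATRA libraries stood far above the 6 without ATRA, and the libraries with both drugs stood above those. The rise was 21.6-fold with ATRA (log2 fold change 4.43 ± 0.18, SE, adjusted p = 1.47e-27, edgeR) and 49.6-fold with CDK4/6i+ATRA (log2 fold change 5.63 ± 0.16, SE, adjusted p = 2.2e-34), while CDK4/6i alone gave log2 0.33 ± 0.32 (SE, adjusted p = 0.389). MX1, which traps viral nucleocapsids in the cytoplasm, had 1 to 26 counts and rose by 2.54 with ATRA and 2.5 with both drugs on the log2 scale.

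GBP2 (hg38 chr1:89106132-89126114), a GTPase that coats pathogen vacuoles, was at 2.04, 2.07 and 3.27 CPM in non-treated cells, 19.8, 18.1 and 14.4 with ATRA, 8.35, 8.25 and 8.78 with CDK4/6i and 79.9, 81.03 and 85.4 with CDK4/6i+ATRA. The 4 groups did not overlap. Each drug alone raised GBP2, by 7-fold with ATRA (log2 fold change 2.81 ± 0.14, SE, adjusted p = 8.45e-24, edgeR) and 3.4-fold with CDK4/6i (log2 fold change 1.77 ± 0.16, SE, adjusted p = 7.11e-14), and both together by 33-fold (log2 5.04 ± 0.11, SE, adjusted p = 1.28e-38). GBP3 was at 1.08, 0.439 and 0.394 CPM in non-treated cells, 7.33, 11.1 and 9.17 with ATRA, 1.19, 2.08 and 1.17 with CDK4/6i and 15.4, 18.3 and 15.1 with CDK4/6i+ATRA. Its order of groups was that of GBP2, with rises of 14.3-fold with ATRA (log2 fold change 3.84 ± 0.25, SE, adjusted p = 2.84e-19, edgeR) and 25.3-fold with both drugs (log2 4.66 ± 0.23, SE, adjusted p = 7.21e-24). With CDK4/6i the log2 value was 1.19 ± 0.35 (SE, adjusted p = 0.00322), a call lost without CDK4/6i replicate 2 (0.89, adjusted p = 0.0521). GBP1, GBP4 and GBP5 had at most 13 counts in a library, and reads shared among these close relatives could be split between them.

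**Figure D3:**
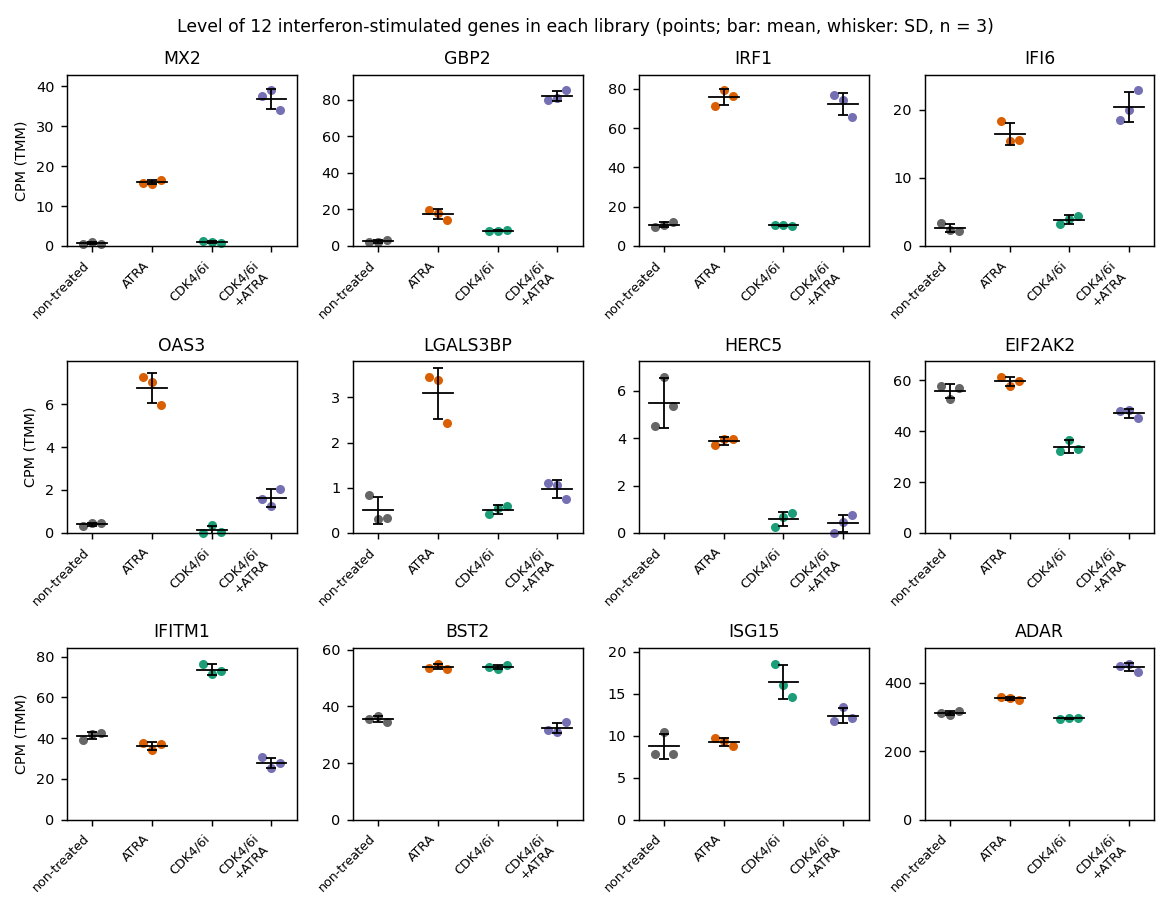
Levels (y axis, TMM-scaled CPM from 0) of 12 members in each library, by group (x axis), with the mean as a bar and the SD as a whisker (n = 3). MX2 and GBP2 are highest with CDK4/6i+ATRA, IRF1 overlaps between both groups given ATRA, OAS3 and LGALS3BP peak with ATRA, and IFITM1 and ISG15 peak with CDK4/6i.

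PARP9, PARP14 and DTX3L, an ADP-ribosylating complex and its relative that act in interferon signalling, were higher in both groups given ATRA and were not called with CDK4/6i alone. DTX3L, the ubiquitin ligase, was at 12.3, 10.8 and 14.3 CPM in non-treated cells, 50.5, 49.3 and 47.7 with ATRA, 9.49, 13.1 and 9.95 with CDK4/6i and 47.2, 43.6 and 44.2 with CDK4/6i+ATRA. Both groups given ATRA stood 3.92-fold and 3.59-fold above non-treated cells in the fit, while the CDK4/6i libraries overlapped the non-treated ones. With CDK4/6i alone DTX3L gave log2 -0.22 ± 0.10 (SE, adjusted p = 0.0722) by edgeR and was called lower without non-treated replicate 2 (-0.31) or CDK4/6i replicate 2 (-0.37). PARP9 gave log2 fold changes of 1.51 with ATRA and 1.5 with both drugs, and PARP14, with 0 to 42 counts, 2.91 and 3.39. DTX3L and PARP9 lie head to head on chromosome 3 (hg38) and share 175 exon bases on opposite strands.

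Of the 6 membrane and secreted proteins, IFITM1 and BST2 differed in direction between CDK4/6i alone and its addition to ATRA. IFITM1 (hg38 chr11:314040-315272), which blocks viral fusion at the cell surface, was at 39.2, 42.1 and 42.6 CPM in non-treated cells, 37.5, 34.05 and 37.2 with ATRA, 76.5, 71.7 and 72.9 with CDK4/6i and 30.6, 25.6 and 27.6 with CDK4/6i+ATRA. Its CDK4/6i libraries were highest and those with both drugs lowest, with no overlap between any of the groups. It rose with CDK4/6i (log2 fold change 0.84 ± 0.06, SE, adjusted p = 8.24e-18, edgeR), fell with CDK4/6i+ATRA (log2 -0.57 ± 0.07, SE, adjusted p = 3.16e-10) and was lower with ATRA (log2 -0.19 ± 0.06, SE, adjusted p = 0.0065), the last call being lost without ATRA replicate 2 (-0.15, adjusted p = 0.0604). BST2 (hg38 chr19:17402939-17405630), or tetherin, which holds budding virions at the membrane, was at 35.5, 36.7 and 34.4 CPM in non-treated cells, 53.7, 55.04 and 53.3 with ATRA, 53.8, 53.3 and 54.6 with CDK4/6i and 31.5, 31.02 and 34.5 with CDK4/6i+ATRA. Each drug alone raised it to the same range, and with both drugs the libraries overlapped the non-treated ones. The log2 fold changes were 0.61 ± 0.06 (SE, adjusted p = 2.27e-13) with ATRA, 0.60 ± 0.06 (SE, adjusted p = 4.9e-13) with CDK4/6i and -0.13 ± 0.07 (SE, adjusted p = 0.0581) with both, by edgeR. The last was called lower under library size alone (-0.40), without a filter (-0.24) and when any of 6 single libraries was left out.

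IFITM2 and IFITM3, which act in endosomes, were higher in all 3 treated groups, by 0.28, 0.39 and 0.30 for IFITM2 and 0.33, 0.36 and 0.44 for IFITM3 (log2, ATRA, CDK4/6i and both). The calls of IFITM3 were lost without several single libraries, among them non-treated replicate 1 in all 3 comparisons (0.23 to 0.33), and with no filter for ATRA and for both drugs (0.31 and 0.33), and under library size alone with both drugs (0.17). The value of IFITM2 with both drugs was 0.03 (adjusted p = 0.583) under library size alone, by edgeR. The 3 IFITM genes are near-identical in parts, so reads could be split between them. PLSCR1, a phospholipid scramblase, rose with ATRA (log2 0.70) and gave 0.19 with both drugs, a call lost without non-treated replicate 1 or 3 or CDK4/6i+ATRA replicate 2 or 3 (0.12 to 0.19) and with no filter (0.08), and at -0.08 under library size alone. LGALS3BP, a secreted glycoprotein, was at 0.841, 0.314 and 0.338 CPM in non-treated cells, 3.45, 3.38 and 2.43 with ATRA, 0.415, 0.55 and 0.585 with CDK4/6i and 1.1, 1.07 and 0.744 with CDK4/6i+ATRA. The 3 ATRA libraries stood above the 9 others, with a rise of 6.12-fold over non-treated cells (log2 fold change 2.61 ± 0.36, SE, adjusted p = 6.54e-09, edgeR), and the level with both drugs was 0.315 times that with ATRA. Its call with both drugs against non-treated cells (log2 0.95 ± 0.45, SE, adjusted p = 0.0493, edgeR) was lost when any of 9 libraries was left out (0.71 to 0.94), with the replicate block (0.96), under library size alone (0.69), with no filter (0.84) and with only the 2 groups compared in the fit (0.95).

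Of the other restriction factors, SAMD9, SAMD9L, TRIM22 and SP110 were higher in both groups given ATRA. TRIM22 (hg38 chr11:5689790-5710863), an antiviral ubiquitin ligase, was at 1.202, 1.19 and 0.676 CPM in non-treated cells, 7.21, 9.503 and 7.07 with ATRA, 1.92, 2.32 and 1.87 with CDK4/6i and 8.43, 8.91 and 10.7 with CDK4/6i+ATRA. The 2 groups given ATRA overlapped each other and stood above the rest, and the CDK4/6i libraries stood above the non-treated ones. Its log2 fold changes were 2.96 ± 0.22 (SE, adjusted p = 3.97e-17) with ATRA, 1.00 ± 0.27 (SE, adjusted p = 0.00162) with CDK4/6i and 3.20 ± 0.22 (SE, adjusted p = 1.98e-18) with both, by edgeR's test. SP110, a nuclear body protein, was at 16.9, 18.8 and 15.6 CPM in non-treated cells, 34.2, 32.9 and 34.8 with ATRA, 17.7, 16.01 and 17.1 with CDK4/6i and 54.8, 47.2 and 49.7 with CDK4/6i+ATRA. Libraries with both drugs were highest, those with ATRA next, and those with CDK4/6i overlapped the non-treated ones, with log2 values of 0.99 ± 0.08 (SE, adjusted p = 2.83e-16) with ATRA and 1.57 ± 0.08 (SE, adjusted p = 2.9e-24) with both, by edgeR. SAMD9 and SAMD9L, paralogs that restrict poxviruses and growth, rose in all 3 comparisons (SAMD9 by 1.04, 0.22 and 1.44, SAMD9L by 1.46, 0.34 and 1.91), the call of SAMD9L with CDK4/6i being lost without non-treated replicate 1 or 3 or CDK4/6i replicate 2 (0.25 to 0.34). CMPK2, a mitochondrial kinase with 0 to 22 counts and 1, 0 and 3 counts with both drugs, was called lower with both drugs by edgeR (log2 -1.89 ± 0.82, SE, adjusted p = 0.0263), a call lost without non-treated replicate 1 or 3 or CDK4/6i+ATRA replicate 1 or 2 (-1.36 to -1.77). ISG20, an RNA exonuclease with at most 12 counts, was called in no comparison.

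IFI6, a small protein of the endoplasmic reticulum and mitochondria that limits flavivirus replication, was at 3.37, 2.32 and 2.25 CPM in non-treated cells, 18.4, 15.4 and 15.5 with ATRA, 3.16, 3.91 and 4.45 with CDK4/6i and 18.5, 19.97 and 22.9 with CDK4/6i+ATRA. The 6 libraries given ATRA stood above the 6 without it, and the highest ATRA library (18.4 CPM) lay just below the lowest with both drugs (18.5 CPM). Its log2 fold changes were 2.63 ± 0.15 (SE, adjusted p = 1.54e-21) with ATRA and 2.95 ± 0.15 (SE, adjusted p = 9.4e-24) with CDK4/6i+ATRA, by edgeR. With CDK4/6i it was 0.53 ± 0.19 (SE, adjusted p = 0.0143), a call lost without non-treated replicate 2 or 3 or CDK4/6i replicate 3 (0.41 to 0.45). IFI35, a partner of NMI, was at 4.39, 4.58 and 3.77 CPM in non-treated cells, 14.5, 15.3 and 14.7 with ATRA, 4.93, 4.34 and 4.33 with CDK4/6i and 20.8, 23.0 and 19.998 with CDK4/6i+ATRA. Its libraries with both drugs stood above those with ATRA, and these above the rest, with log2 values of 1.81 ± 0.12 (SE, adjusted p = 2.92e-18) with ATRA, 0.10 ± 0.15 (SE, adjusted p = 0.584) with CDK4/6i and 2.33 ± 0.12 (SE, adjusted p = 6.25e-23) with both, by edgeR. The call of IFI35 for both drugs against ATRA (log2 0.52) was lost under library size alone (0.21, adjusted p = 0.0584, edgeR). XAF1, a pro-apoptotic protein with 1 to 18 counts, was called in no comparison. For both drugs against CDK4/6i it gave log2 -1.23 ± 0.59 (SE, adjusted p = 0.0513) by edgeR and was called lower under library size alone (-1.5), with no filter (-1.33) and without ATRA replicate 2 or 3, CDK4/6i replicate 3 or CDK4/6i+ATRA replicate 3 (-1.24 to -2.03).

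The design also tests ATRA in the presence of CDK4/6i, in libraries that the comparison of ATRA with non-treated cells does not use. In CDK4/6i+ATRA against CDK4/6i, 27 members were higher and 4 lower, where 39.1% of all genes were called higher, 39.5% lower and 78.6% in either direction. By at least 2-fold, 19 members were higher and 2 lower, against 18.6% and 19.9% of all genes. Rises with ATRA both without and with CDK4/6i were called for 24 members (26.6% of all genes), among them MX2, GBP2, GBP3, IRF1, IFI6, IFIT2, IFIT3, STAT2, OAS3 and TRIM22. IFITM1 was lower in both (29.4% of all genes). BST2 was higher without CDK4/6i and lower with it, and TRIM25 the reverse, patterns called for 2.18% and 2.39% of all genes. TRIM25's change with CDK4/6i present was log2 0.12, which turned to -0.16 under library size alone and was 0.01 (not called) with no filter.

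Set the other way, CDK4/6i+ATRA against ATRA gave 16 members higher and 8 lower (36.9% and 32.8% of all genes, 69.8% in either direction). Under library size alone, which moved the median over all genes from 0.04 to -0.26, the split was 7 higher and 12 lower, so that directions of small changes in this comparison depend on the scaling. CDK4/6i raised 10 members both without and with ATRA (GBP2, GBP3, HERC6, IFI6, IFIH1, IFIT5, ISG15, SAMD9, SAMD9L and STAT2, where 19% of all genes were called so) and lowered 3 in both (EIF2AK2, HERC5 and OAS3, where 20% were). Added to ATRA, the call of IFI6 was lost without ATRA replicate 2 or 3 or CDK4/6i+ATRA replicate 3 (0.23 to 0.27) and that of HERC6 without CDK4/6i+ATRA replicate 2 (0.30), and both were lost with no filter (0.23 and 0.34). Under library size alone, HERC6, IFI6, ISG15, SAMD9, SAMD9L and STAT2 of these 10 were not called when CDK4/6i was added to ATRA (log2 0.01 to 0.21). BST2 and IFITM1 were higher with CDK4/6i alone and lower when it was added to ATRA (3.34% of all genes). By at least 2-fold, GBP2 (log2 2.24) and MX2 (1.20) were higher with both drugs than with ATRA, and HERC5 (-3.22), CMPK2 (-2.82), OAS3 (-2.04) and LGALS3BP (-1.67) lower, 2 and 4 genes where 10.8% and 13.2% of all genes moved so.

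Whether the change with ATRA differed by the presence of CDK4/6i was tested as an interaction on the log2 scale, which asks whether the fold changes multiply. It was called for 15 members, 7 higher and 8 lower, where 51.4% of all genes were called, 24.5% higher and 27% lower, so the count of members is read against a background in which most genes differ. By at least 2-fold, 0 members were higher and 4 lower (CMPK2, LGALS3BP, BST2 and IFITM1), against 4.7% and 9.88% of all genes. Among members called at 5 CPM or more, the lowest values were those of BST2, at log2 -1.34 ± 0.08 (SE, adjusted p = 5.02e-19), and IFITM1, at -1.21 ± 0.09 (SE, adjusted p = 2.72e-16), by edgeR's test. For both, the ATRA effect was lower in the presence of CDK4/6i than in its absence, and the call held in each alternative run. The effect on BST2 turned from log2 0.61 to -0.73, and that on IFITM1 went from -0.19 to -1.40. Next came TRIM22, at -0.76 ± 0.32 (SE, adjusted p = 0.0409), and ISG15, at -0.50 ± 0.17 (SE, adjusted p = 0.011), by edgeR, of which the first was lost without non-treated replicate 3, ATRA replicate 2, CDK4/6i replicate 2 or CDK4/6i+ATRA replicate 1 or 2 (-0.53 to -0.73) and the second without CDK4/6i replicate 1 (-0.39). OAS3 gave -0.52 ± 0.79 (not called), with a range of -1.14 to 1.46 as single libraries were left out. LGALS3BP and CMPK2 were lower still (-1.71 and -3.09) from low counts. On the linear scale, which asks whether the changes in CPM add, 21 members were called, 13 higher and 8 lower, where 50.9% of all genes were called, 31.4% higher and 19.6% lower.

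Among members called at 5 CPM or more, the highest interaction was that of MX2, at log2 0.87 ± 0.34 (SE, adjusted p = 0.0309), followed by SP110, at 0.58 ± 0.11 (SE, adjusted p = 1.35e-05), GBP2, at 0.47 ± 0.19 (SE, adjusted p = 0.0365), and ADAR, at 0.40 ± 0.05 (SE, adjusted p = 2.06e-09), by edgeR. MX2 lost the call without non-treated replicate 2 (0.60) or CDK4/6i replicate 3 (0.66), and GBP2 without non-treated replicate 3 (0.20), ATRA replicate 3, CDK4/6i replicate 1 or 2, or CDK4/6i+ATRA replicate 3 (0.34 to 0.47). Both calls were also lost with no filter (0.78 and 0.39). PARP14, IFIT5 and IFI35 were at 1.5 ± 0.86, 0.49 ± 0.24 and 0.42 ± 0.18 and were not called. IFI35 was called with at least 10 counts in every library (0.42) or without non-treated replicate 3, CDK4/6i replicate 1 or CDK4/6i+ATRA replicate 3 (0.46 to 0.49), and IFIT5 without non-treated replicate 1 (0.60). Under library size alone the split of called members was 0 higher and 14 lower, and MX2, SP110, GBP2 and ADAR were at 0.55, 0.26, 0.15 and 0.09 with none called, while the median over all genes moved from -0.02 to -0.34. GBP2 and MX2 were still called higher with both drugs than with either drug alone under that scaling, by log2 1.93 and 0.90 against ATRA, the latter below 2-fold. For IRF1 (-0.02 ± 0.12, SE, adjusted p = 0.929), PARP9 (0.01 ± 0.18, SE, adjusted p = 0.973) and IFIH1 (0.01 ± 0.11, SE, adjusted p = 0.942), the interaction was not called by edgeR, though IRF1 and IFIH1 were called lower under library size alone (-0.33 and -0.31).

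**Figure D4:**
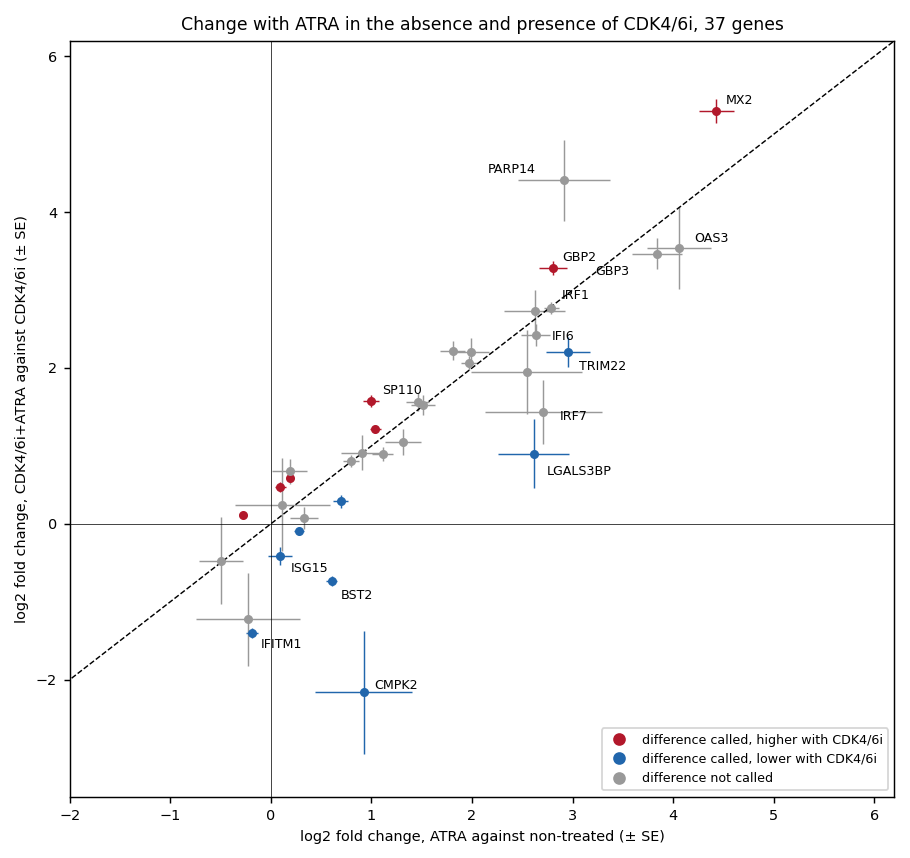
Log2 fold change with ATRA in the absence (x axis) and presence (y axis) of CDK4/6i for the 37 tested members, with standard errors. The dashed line marks equal change. MX2, GBP2 and SP110 lie above it (red, difference called higher), and BST2, IFITM1, TRIM22, LGALS3BP and CMPK2 below it (blue, called lower).

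The rest of the interferon pathway was read from lists of other genes. None of the 22 interferon genes (types I, II and III) was tested, 19 had no count in any library, and no library held more than 1 count of any. The shares of all genes called higher and lower, given above, are the background for the counts that follow (32.1% and 35.5% with ATRA, 28.3% and 27.9% with CDK4/6i, 41% and 40.7% with both drugs). Of the receptors and kinases, 8 of 8 tested genes were higher with ATRA, 7 of 8 with CDK4/6i and 8 of 8 with both drugs, and 0 were lower. IFNGR2, a chain of the interferon gamma receptor, was at 5.17, 4.39 and 5.35 CPM in non-treated cells, 13.6, 11.5 and 10.99 with ATRA, 6.07, 7.39 and 6.32 with CDK4/6i and 31.2, 29.1 and 30.7 with CDK4/6i+ATRA. Its libraries with both drugs stood above all others, at log2 2.60 ± 0.11 (SE, adjusted p = 3.11e-26) against non-treated cells by edgeR. The kinase JAK2 and the receptor chain IFNAR2 followed, at log2 2.49 and 2.16 with both drugs and 2.20 and 1.86 with ATRA.

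Among 8 other transcription factors, 6 were tested, and 5 were higher and 1 lower with ATRA, 4 and 1 with CDK4/6i, and 4 and 1 with both, where 81.7% of all genes were called in either direction with both drugs. BATF2, an interferon-induced partner of IRF1, had 0, 0 and 3 counts without treatment, 232, 299 and 285 with ATRA, 2, 1 and 0 with CDK4/6i and 127, 131 and 135 with both. IRF2 was higher (log2 1.55 with both drugs) and IRF5 lower (-1.65). Of 7 inhibitors of the pathway, 5 were higher and 2 lower with ATRA, 2 and 3 with CDK4/6i, and 4 and 2 with both drugs, with SOCS3, a feedback inhibitor of JAK kinases, at 0, 0.188 and 0.113 CPM in non-treated cells, 1.91, 1.87 and 3.09 with ATRA and 7.79, 6.33 and 5.95 with both, IRF2BP1 at log2 -1.61 and the phosphatase PTPN6 at 1.32.

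Of the nucleic acid sensing genes, 16 were in the table and 13 tested, of which 12 were higher and 1 lower with ATRA, 7 and 3 with CDK4/6i, and 10 and 2 with both. AIM2, a sensor of cytosolic DNA, was at 0.1202, 0.188 and 0.225 CPM in non-treated cells, 18.3, 17.3 and 13.6 with ATRA, 1.82, 1.22 and 1.29 with CDK4/6i and 56.0, 53.7 and 58.5 with CDK4/6i+ATRA. The 4 groups did not overlap, in the order non-treated, CDK4/6i, ATRA and both. TLR8 and the adaptor MYD88 also rose with both drugs (MYD88 at log2 4.01, TLR8 from 3, 2 and 1 counts in non-treated libraries to 219, 202 and 257). Of 34 further ISGs, 25 were tested, 17 being higher and 6 lower with ATRA, 15 and 7 with CDK4/6i, and 16 and 7 with both, with APOL1 (1, 1 and 2 counts in non-treated libraries, 73, 97 and 70 with both drugs), APOBEC3G (1, 5 and 2 counts against 31, 42 and 43) and DDX60L (log2 3.55) the largest rises with both drugs.

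Markers of myeloid maturation also changed with these treatments, and their association with the ISGs was not tested. With ATRA, all 7 tested genes of a list of 8 were higher (32.1% of all genes), among them ITGAM, CD38 and CYBB. All 7 were higher with both drugs (41% of all genes) and 6 with CDK4/6i (28.3%). The summed level of the list was 224 to 238 CPM in non-treated cells, 4690 to 4811 with ATRA, 677 to 705 with CDK4/6i and 6466 to 6687 with both. CD14 had at most 5 counts in a library, and CD38 had 0 to 8 counts in the libraries without ATRA. MPO, a granule enzyme of immature cells, fell from between 6336 and 6666 CPM to between 268 and 322 with ATRA, between 3414 and 3543 with CDK4/6i and between 24.5 and 33.9 with both. Of the 5 tested genes of the 8 myeloid leukaemia line markers that include MPO, 2 were higher and 3 lower with ATRA, 3 and 2 with CDK4/6i, and 2 and 2 with both, with SPI1 and CEBPE higher in all 3. The part of this change in the ISG result was not tested. Markers of other cell types were at or near 0 (erythroid genes without a count, fibroblast and epithelial lists at 1.01 CPM or less in sum), apart from CD3E (0.55 to 3.06 CPM) among 5 T cell genes and CD79A (12.3 to 24.7 CPM) among 3 B cell genes, which were both lower with CDK4/6i+ATRA. With CDK4/6i alone both were called higher (log2 0.53 and 0.47), and CD79A was called higher with ATRA (0.50).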

How the data were processed

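Total RNA from 12 HL60 libraries (4 groups of 3) was sequenced. The deposited table holds raw read counts per gene for 59251 genes, of which the authors' submission notes name Trimmomatic 0.33, STAR 2.7.11a and hg38. The study's methods name RSEM, whereas the whole-number table has the layout of a featureCounts output, and the strand setting of the counting is not given in the sources used here. No molecular identifiers were used, so floors cover counting error only. The 51 members and all gene lists were chosen with earlier results of these data known.

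Counts were fitted over all genes passing edgeR's filter (13318) with the quasi-likelihood test (edgeR 4.0.16, limma 3.58.1, R 4.3.3), with TMM scaling, 1 model of 4 groups (8 residual degrees of freedom) and 6 comparisons, each with Benjamini-Hochberg adjustment at 0.05. Libraries of a group varied by 3.7% (common biological coefficient of variation). The SE is the log2 fold change divided by the square root of the F statistic. CPM values are scaled by TMM. Library pairs within groups differed by more than sampling noise (chi-square per degree of freedom 1.81 to 6.22).

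Genes named with full values were, among members called with a group mean of at least 5 CPM, up to 8 rises and 8 falls with CDK4/6i+ATRA and the 4 highest and 4 lowest interactions, with the 3 largest changes for each single drug. Other members are given by role. Of falls at that level, only HERC5, IFITM1 and EIF2AK2 were found. DTX3L, STAT2 and LGALS3BP were given per library after their values were seen. Alternatives were DESeq2 1.42.0 (test and size factors), library size alone, no filter, at least 10 counts in every library, a 2-fold minimum, only the groups compared, the interaction on the linear scale, the replicate number as a block, and each library left out in turn. Promoters came from RefSeq (GRCh38.p14), and only motif letters were searched. Figures were drawn with Python 3.11.15.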

Additional observations from a re-analysis of the deposited data

Results flagged for a closer look

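For 15 members the change with ATRA differed between cells with and without CDK4/6i, by the interaction term of edgeR's test (log2, with CDK4/6i minus without, 3 libraries in each of 4 groups). It was higher with CDK4/6i for MX2 (0.87, adjusted p = 0.0309), SP110 (0.58, 1.35e-05), GBP2 (0.47, 0.0365), ADAR (0.40, 2.06e-09), TRIM25 (0.39, 1.96e-08), EIF2AK2 (0.39, 0.000118) and SAMD9 (0.18, 0.0325). The call of SAMD9 was lost by DESeq2's test (0.16, adjusted p = 0.102), with DESeq2's size factors (0.16), with no filter (0.10), under library size alone (-0.135) and when any of 7 libraries was left out (0.13 to 0.18). It was lower for IFITM2 (-0.38, adjusted p = 7.14e-06, edgeR), PLSCR1 (-0.41, 0.00145), ISG15 (-0.50, 0.011), TRIM22 (-0.76, 0.0409), IFITM1 (-1.21, 2.72e-16), BST2 (-1.34, 5.02e-19), LGALS3BP (-1.71, 0.0128) and CMPK2 (-3.09, 0.00323). Under library size alone 0 members were called higher and 14 lower. Of all genes tested, 51.4% were called for this term.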

How the results depend on the processing

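Asking for at least a 2-fold change took the members called from 31 to 20 with ATRA, from 19 to 5 with CDK4/6i, from 24 to 6 for CDK4/6i+ATRA against ATRA and from 15 to 4 for the interaction. With each library left out in turn, members called ranged from 29 to 32 with ATRA, 16 to 20 with CDK4/6i, 32 to 37 with both drugs, 30 to 35 for both against CDK4/6i, 22 to 26 for both against ATRA and 12 to 16 for the interaction. The filter was run again each time, so these counts can include members outside the 37 of the main fit. The other pathway genes called ranged over 54 to 57, 44 to 50, 52 to 54, 50 to 52, 46 to 51 and 29 to 33 in the same order. DESeq2's test called 30, 19, 34, 31, 24 and 14 members, a minimum of 10 counts in every library 23, 15, 25, 24, 18 and 14, and no filter 32, 19, 34, 32, 26 and 13. The 10-count minimum left 26 members to test, and no filter tested all members but the 4 without a count. Their counts therefore have different denominators, and the shares of all genes called under these settings are not given. The interaction on the linear scale was called for 21 members (13 higher and 8 lower), where 50.9% of all genes were called. Library size alone left the gap between the members' median and that of all genes at 1.48 with both drugs, but moved the split for both drugs from 30 higher and 4 lower to 24 and 6, for both against CDK4/6i from 27 and 4 to 25 and 7, for both against ATRA from 16 and 8 to 7 and 12, and for the interaction from 7 and 8 to 0 and 14. The cause was not tested. The combination libraries had TMM factors of 0.84 to 0.893, against 1.025 to 1.07 in the others.

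Same-numbered libraries did not deviate together (r from -0.0702 to 0.0328 over 18 pairs, against -0.0486 to 0.0597 over 36 pairs of different number). A low r cannot tell whether libraries of the same number were cultured or prepared together. With the replicate block, 31, 18, 33, 31, 24 and 15 members were called, the calls lost being those of OAS3 with CDK4/6i and LGALS3BP with both drugs. For the 14 members without enough counts no change was tested in the main fit, and the cause of their low counts was not tested. In the 11 tested members with fewer than 10 counts in some library, depth limits the precision.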
